A study of Mus musculus with 9 samples.

Results

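The S100 calcium-binding protein genes were followed in neutrophils sorted from the skin and lesions of mice that had gone through chemical skin carcinogenesis. The 10 genes were S100a1, S100a3, S100a4, S100a6, S100a8, S100a9, S100a10, S100a11, S100a13 and S100a14, taken as every non-control probe carrying 1 of these gene names. They made up 10 of the 34797 gene names on the array and 12 of its 55681 probes, S100a1 and S100a4 having 2 probes each. All 12 probes were well above background on all 9 arrays, and none was saturated.

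S100 proteins are small EF-hand proteins that bind calcium and mostly work as dimers. S100a8 and S100a9 form calprotectin, an abundant protein of the neutrophil cytosol that is antimicrobial by withholding metal ions and that signals as a danger molecule once released. Other members act inside cells on annexins, the cytoskeleton and membranes.

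Neutrophils were defined as Gr-1bright cells and FACS-sorted to high purity from FVB/N mice, all of which received the carcinogen DMBA at an age of 6 weeks and again at 13 weeks, and repeated applications of the tumor promoter PMA, from week 1 to between weeks 18 and 20. The groups were skin around papillomas (papilloma skin, 2 arrays), skin around tumors (tumor skin, 2 arrays), papillomas (3 arrays) and tumors (2 arrays). The RNA on an array came from a pool of mice, and the spread between arrays was therefore a spread between pools. There was no group of untreated mice, and the skin groups were therefore controls exposed to the same agents.

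Of the neutrophil genes that checked the labelled cell type, Csf3r, the G-CSF receptor, lay between 16.68 and 16.89 on the log2 scale in every array. Of 8 neutrophil genes 3 fell in tumor and 2 in papilloma, and none rose. Over all gene names 4.22% fell in tumor and 2.75% in papilloma. Retnlg, a resistin-like gene of neutrophils, fell by 0.94 in tumor and 0.88 in papilloma (limma adjusted p = 0.00624 and 0.00523), and Mmp8, the neutrophil collagenase, by 1.92 and 1.95 (0.00726 and 0.00461). Ly6g, part of the Gr-1 antigen itself, fell in tumor (log2 fold change -2.09, limma adjusted p = 0.00849) and was at -1.08 in papilloma (0.072). The part of these genes in the S100 values was not tested. The value table columns of papilloma skin 1 and tumor 1 did not rank like the scanner file of the same sample (Spearman's rho across probes 0.584 and 0.825) and were closest to the file of tumor 2 (0.923 and 0.946). The columns of papilloma 2 and papilloma 3 ranked closest to each other's file (0.981 and 0.958). The other 5 columns ranked closest to their own file. Labels were kept as deposited, and values without the columns of papilloma skin 1 and tumor 1 are given as the 7-column fit beside the main results. That fit holds tumor 2 as the only tumor column and papilloma skin 2 as the only papilloma skin column. Its calls for these groups therefore rest on a spread estimated in the other groups.

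All member probes lay on chromosome 3 of the mm9 build, 8 genes in 1 cluster and S100a10 and S100a11 in another. In 4 of the 12 probes a script found the code of the second EF-hand loop, a stretch of 12 codons whose acidic side chains hold the calcium ion. These 4 probes are shown because they read the coding part of S100a8 and S100a6, on which the main comparisons turn, and of S100a4 and S100a1, the genes with a pair of probes. Capitals mark the loop codons that lie within the probe, and each probe is written in the orientation of the transcript.
S100a8, chr3:90473778-90473837, plus strand: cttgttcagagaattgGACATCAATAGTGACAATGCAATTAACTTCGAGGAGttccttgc
S100a6, chr3:90418160-90418219, plus strand: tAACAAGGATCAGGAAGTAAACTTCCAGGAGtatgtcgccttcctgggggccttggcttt
S100a4, chr3:90409734-90409793, plus strand: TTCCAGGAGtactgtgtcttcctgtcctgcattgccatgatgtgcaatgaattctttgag
S100a1, chr3:90315191-90315250, minus strand: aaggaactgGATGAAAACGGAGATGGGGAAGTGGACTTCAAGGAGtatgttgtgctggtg
The S100a8 and S100a1 probes held all 12 loop codons, the S100a6 probe 10 and the S100a4 probe 3. Among probes of different members the longest run of identical bases was 11, between S100a4 and S100a6, in probes of 60 bases. All 10 members matched a RefSeq gene of the same symbol through the transcript named for the probe.

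The values below are log2 values of the deposited value table, as the median over a gene's probes. A gene was called where its limma adjusted p, over all 34797 gene names, was at most 0.05. A change of 1 is a 2-fold change, and levels are compared between arrays and never between genes.

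One member, S100a6, was lower in neutrophils of both lesions than in those of the surrounding skin. S100a6 (calcyclin), which binds annexins and cytoskeletal proteins, was at 17.28 and 17.21 in tumor skin and at 16.49 and 16.30 in tumor. In papilloma skin it was at 16.92 and 16.85, and in papilloma at 16.01, 15.88 and 16.07. In the value table all 5 lesion arrays were thus lower than all 4 skin arrays. S100a6 fell in tumor against tumor skin by 0.85 on the log2 scale (SE 0.14, 95% interval from -1.16 to -0.53, limma adjusted p = 0.00948). In papilloma against papilloma skin it fell by 0.90 (SE 0.13, interval from -1.19 to -0.61, limma adjusted p = 0.00521). The papilloma and tumor effects differed by 0.06 (SE 0.19), with a limma adjusted p of 0.925. In the scanner files, where each array's slide is known, the tumor difference within slide 1 was -0.75, and the papilloma difference was -0.51 within slide 1 and -0.66 within slide 2. With slide as a term in the value table fit the tumor value was -0.77 and no longer a call (limma adjusted p = 0.11). The papilloma value of -0.93 stayed a call there (0.039). That term took each column's slide from the scanner file of the same sample, also where the column ranked closer to another file. With replicate number as a term in the value table fit S100a6 was not called at either stage. From the scanner files, quantile normalized and corrected for slide, the fold changes were -0.94 in tumor (limma adjusted p = 0.151) and -0.62 in papilloma (0.0957), and neither was a call. In those values lesions and skin overlapped, S100a6 being at 16.68 in tumor 1 and 16.59 in papilloma skin 1. Scaling the scanner files to the 75th percentile turned the papilloma value to 0.48 while the median of all genes moved to -0.36. In the 7-column fit S100a6 was called in tumor (-0.94, limma adjusted p = 0.0399) and missed the threshold in papilloma (-0.87, 0.0517), and the tumor call also ended without tumor 2 (-0.75, 0.08).

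S100a11 (calgizzarin), a partner of annexin 1, differed from tumor skin in tumor. It was at 15.18 and 15.17 in tumor skin and at 14.19 and 13.63 in tumor. In papilloma it was at 14.22, 14.23 and 14.23, between the papilloma skin values of 13.82 and 14.69. The tumor groups thus did not overlap and the papilloma groups did. S100a11 fell by 1.26 in tumor against tumor skin (SE 0.28, 95% interval from -1.92 to -0.61, limma adjusted p = 0.0303). In papilloma the fold change was -0.03 (SE 0.26, interval from -0.63 to 0.57, limma adjusted p = 0.966). The difference between the tumor and papilloma effects was -1.23 (SE 0.38) and was not a call over all genes (limma adjusted p = 0.236). The tumor call held when 3 of the 9 arrays were left out singly and ended for the other 6, without tumor 2 (0.182), tumor skin 1 (0.0968), tumor skin 2 (0.0878), papilloma 1 (0.0507), papilloma 2 (0.0502) or papilloma 3 (0.0588). In the scanner files the tumor value of S100a11 was -0.45 (limma adjusted p = 0.636), and in the 7-column fit -1.54 (0.0151). With slide as a term in the value table fit, under the same limit on the columns' slides, the value was -1.30 and the call ended (0.17). The call also ended with replicate number as a term.

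These were the calls among the members. In tumor against tumor skin 2 of 10 were called, both lower, where 10.4% of all gene names were called and 4.22% were lower. In papilloma against papilloma skin 1 of 10 was called, lower, where 7.56% were called and 2.75% were lower. With the stages combined, as lesions against skin, 2 of 10 were called, both lower, where 16.3% were called and 6.49% were lower. Those 2 were S100a6 (-0.87, limma adjusted p = 0.000769) and S100a4 (-1.27, limma adjusted p = 0.0289). The median fold change over the 10 members was -0.49 in tumor, -0.29 in papilloma and -0.39 for both, against -0.01, -0.01 and -0.02 over all gene names. No overlap, with all tumor arrays below all tumor skin arrays, was seen for 7 members, where 26.2% of gene names showed it. The same held for 3 members in papilloma, against 18.4%, and for 2 with the stages combined, S100a6 and S100a8, against 5.11%. In the scanner files S100a1, S100a4 and S100a11 overlapped tumor skin in tumor, and S100a9 lay below it. With the stages combined S100a6 overlapped there, and S100a8 and S100a9 lay below skin. The members were chosen with earlier results of these data known.

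**Figure D1:**
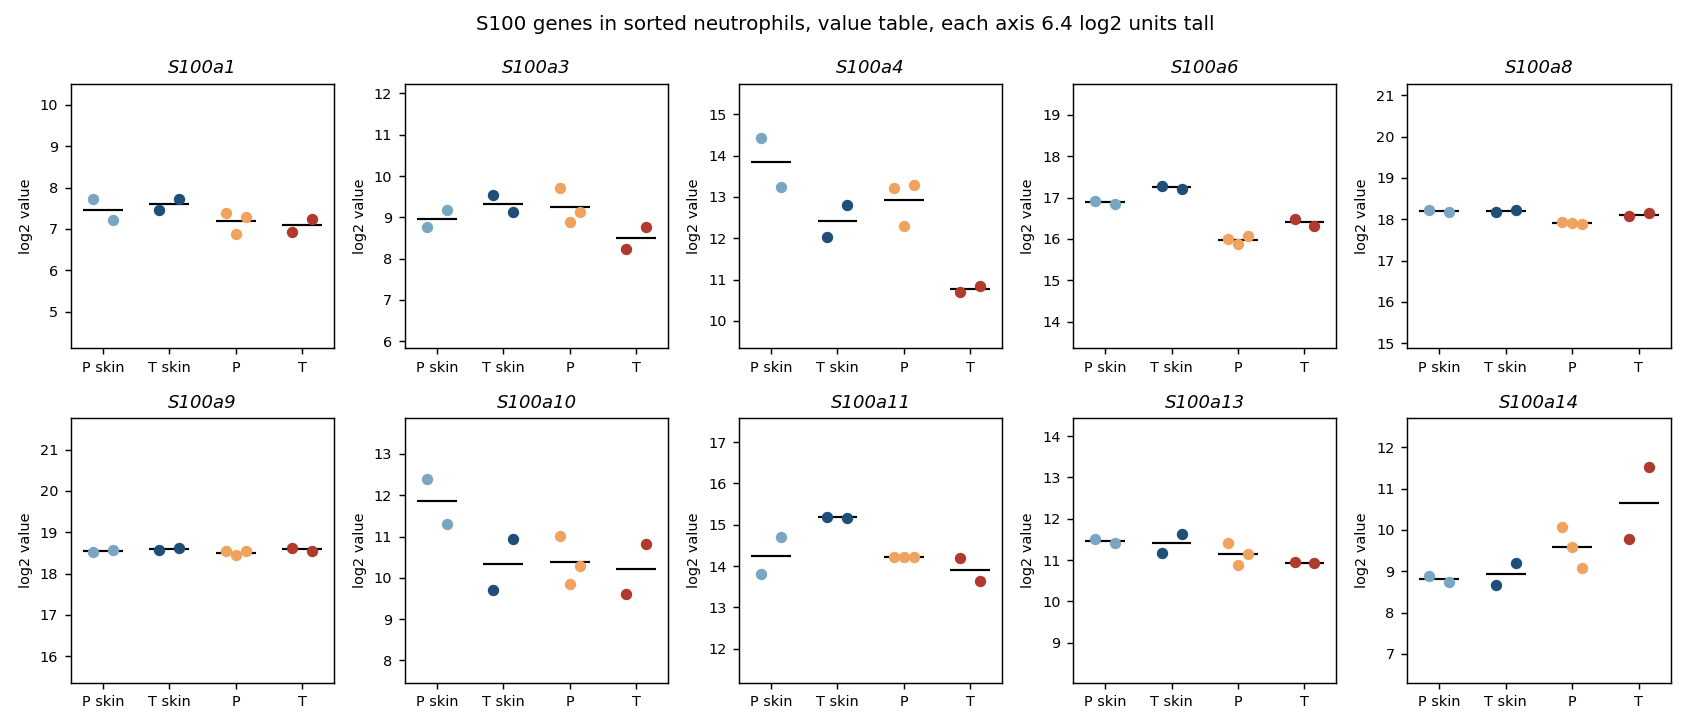
Log2 value of each S100 gene (y axis) in each array, by group (x axis: P skin, papilloma skin; T skin, tumor skin; P, papilloma; T, tumor). Points are arrays and lines are group means. In these value table values S100a6 is lower in every lesion array than in every skin array, and S100a8 and S100a9 stay within narrow ranges.

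**Figure D2:**
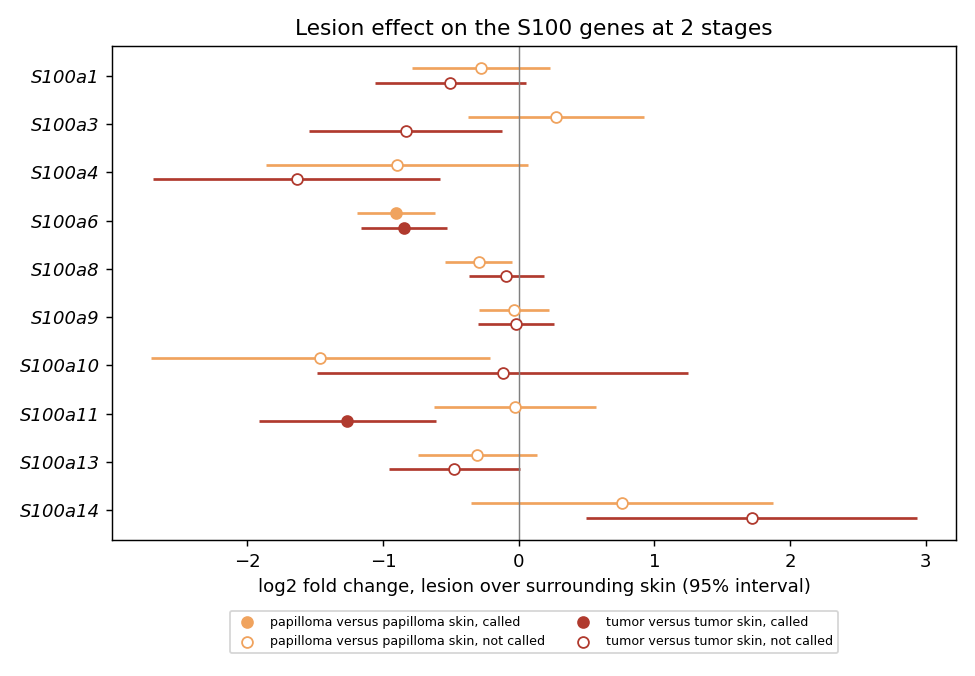
Log2 fold change of lesion over surrounding skin for each gene (x axis), with 95% intervals from limma, for papilloma (orange) and tumor (red); filled points are calls at an adjusted p of at most 0.05. S100a6 is filled at both stages, S100a11 in tumor, and the intervals of S100a9 lie around 0.

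In the value table the calprotectin genes differed little between lesion and skin, and neither was called. S100a8 was at 18.22 and 18.18 in papilloma skin, 18.18 and 18.22 in tumor skin, 17.93, 17.90 and 17.88 in papilloma, and 18.07 and 18.14 in tumor. Each lesion array was below each skin array, and the papilloma arrays were the lowest. The fold changes were small, -0.30 in papilloma (SE 0.11, 95% interval from -0.55 to -0.05, limma adjusted p = 0.157) and -0.09 in tumor (SE 0.12, interval from -0.36 to 0.18, limma adjusted p = 0.676).

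S100a9 was at 18.52 and 18.58 in papilloma skin, 18.58 and 18.63 in tumor skin, 18.54, 18.45 and 18.54 in papilloma, and 18.62 and 18.55 in tumor. All groups overlapped their surrounding skin. The log2 fold changes were -0.04 in papilloma (SE 0.11, 95% interval from -0.29 to 0.22) and -0.02 in tumor (SE 0.12, interval from -0.30 to 0.26), with limma adjusted p of 0.897 and 0.944.

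The probes of both genes lay near the upper end of the measured range. The S100a9 probe held ranks 1 to 6 of 55681 in the value table columns and the S100a8 probe ranks 11 to 25. Their processed signals in the scanner files, from 270824 to 421314 for S100a9 and from 207209 to 341338 for S100a8, were not saturated. In the scanner files the tumor fold changes were -0.30 for S100a8 and -0.31 for S100a9 (limma adjusted p = 0.569 and 0.549).

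Over the 9 arrays, among 5720 gene names with a mean value of at least 8, the profiles most like S100a8 were those of Arpc1b (a subunit of the Arp2/3 actin-nucleating complex, Pearson's r 0.967), Mcee (methylmalonyl-CoA epimerase, 0.964) and Tkt (transketolase, 0.959). For S100a9 they were Eps15, an endocytic adaptor (0.907), Fundc1, a mitophagy receptor (0.905), and Rdh5, a retinol dehydrogenase (0.889). These correlations describe 9 arrays of 4 groups that shared their normalization.

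S100a4 (metastasin), a partner of non-muscle myosin, varied more. It was at 14.42 and 13.25 in papilloma skin, 12.03 and 12.81 in tumor skin, 13.23, 12.31 and 13.28 in papilloma, and 10.71 and 10.85 in tumor. The tumor arrays lay below all 7 others. The fold change was -1.64 in tumor (SE 0.46, limma adjusted p = 0.0598) and -0.90 in papilloma (SE 0.42, limma adjusted p = 0.265). Both S100a4 probes gave the same direction, -1.57 and -1.70 in tumor and -0.96 and -0.83 in papilloma.

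In the scanner files S100a4 went the other way, with 0.52 in tumor and 0.77 in papilloma (limma adjusted p = 0.819 and 0.551). The processed signals of its 2 probes were 54099 and 41176 in the file of tumor 1, against 2957 and 1858 in that of tumor 2. The 6 scanner arrays with a full spike-in slope leave out papilloma skin 1, tumor skin 1 and tumor 1. There S100a4 was at -2.79 in tumor and -0.11 in papilloma. The tumor value sets tumor 2 alone against tumor skin 2 alone, on different slides and without slide correction. The papilloma value has papilloma skin 2 as its sole skin array. Without the columns of papilloma skin 1 and tumor 1 the value table gave -1.57 in tumor (limma adjusted p = 0.134), -0.31 in papilloma (0.799) and -0.94 for lesions against skin (0.142), and no call.

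S100a10 (p11), the partner of annexin 2 in a plasminogen-binding complex, was at 12.38 and 11.31 in papilloma skin, 9.71 and 10.94 in tumor skin, 11.01, 9.85 and 10.30 in papilloma, and 9.61 and 10.82 in tumor. The papilloma arrays lay below the papilloma skin arrays, and the tumor arrays overlapped tumor skin. Fold changes were -1.46 in papilloma (SE 0.54, limma adjusted p = 0.162) and -0.12 in tumor (SE 0.59, limma adjusted p = 0.925). The scanner files gave the opposite sign, 0.37 in papilloma (limma adjusted p = 0.71) and 1.19 in tumor (0.48), and the 7-column fit gave -0.93 (0.48) and 0.49 (0.67).

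S100a14, a member made by epithelial cells, was the only one of the 10 above its surrounding skin without overlap in tumor, where 26.2% of gene names lay above, and also in papilloma, where 19.9% did. It was at 9.77 and 11.51 in tumor against 8.66 and 9.19 in tumor skin. In papilloma it was at 10.06, 9.60 and 9.07, against 8.89 and 8.73 in papilloma skin. The fold changes were 1.72 in tumor (SE 0.53, 95% interval from 0.50 to 2.94, limma adjusted p = 0.0786) and 0.76 in papilloma (SE 0.48, limma adjusted p = 0.418). Tumor 2 was the highest array. Without the columns of papilloma skin 1 and tumor 1, which left tumor 2 alone in its group, the tumor value was 2.59.

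Keratinocyte genes moved with S100a14. The mean of 12 keratinocyte genes was 8.69 and 8.07 in papilloma skin, 8.03 and 8.82 in tumor skin, 10.62, 9.91 and 9.71 in papilloma, and 9.81 and 11.65 in tumor. In tumor 5 of the 12 rose, among them Krt6b (5.53, limma adjusted p = 0.0024), a keratin of activated epidermis, and Krt14 (3.29, limma adjusted p = 0.0346), a basal-layer keratin. In papilloma 4 of the 12 rose, Krt6b by 4.08 (limma adjusted p = 0.0047). Of all 34797 gene names 2147 rose in tumor and 1671 in papilloma. The part of the keratinocyte genes in the S100a14 values was not tested. In sorted bulk cells a share of another cell type and a level per cell cannot be told apart. In the scanner files S100a14 was at 12.36 in papilloma skin 1 and 9.67 in papilloma skin 2, and its papilloma fold change was -1.14 (limma adjusted p = 0.339).

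**Figure D3:**
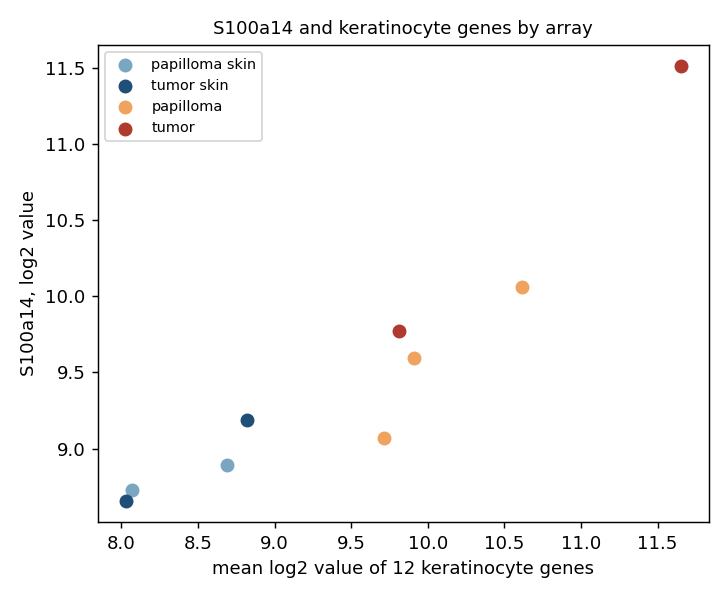
S100a14 log2 value (y axis) against the mean log2 value of 12 keratinocyte genes (x axis) in each array, colored by group. The skin arrays lie at the lower left, with S100a14 at 9.19 or less, and tumor 2 lies at the upper right with 11.51.

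The remaining members were S100a1, S100a3 and S100a13, a gene whose product takes part in the release of growth factors that lack a signal peptide. S100a3 was at 9.54 and 9.12 in tumor skin and 8.23 and 8.76 in tumor. Its fold change was -0.83 in tumor (SE 0.31, limma adjusted p = 0.128) and 0.28 in papilloma (limma adjusted p = 0.635). From the scanner files S100a3 was at -3.68 in tumor (limma adjusted p = 0.286) and -2.03 in papilloma (0.294), with 4.44 in tumor 1 and 14.24 in papilloma skin 1. S100a13 was at 11.18 and 11.64 in tumor skin and 10.95 and 10.92 in tumor, a fold change of -0.48 (SE 0.21, limma adjusted p = 0.192). S100a1 was at 7.46 and 7.72 in tumor skin and 6.93 and 7.24 in tumor, with a fold change of -0.50 (SE 0.24, limma adjusted p = 0.228). Its 2 probes differed, at -0.98 and -0.03. All 3 genes had tumor arrays below tumor skin arrays, where 26.2% of gene names did, and none was called. In the scanner files S100a3 and S100a13 also lay below, and S100a1 overlapped (-0.09, limma adjusted p = 0.94).

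Between stages no member was called. In tumor against papilloma limma called 0 of 10, where 0.983% of gene names were called. An unadjusted p under 0.05 was seen for 3 members and for 5299 of all 34797 gene names. The largest value there was that of S100a4, -2.16 (SE 0.42, limma adjusted p = 0.0661), and the scanner files gave 0.05 for it (0.982). There the largest value was that of S100a3, -3.63 (limma adjusted p = 0.22). In tumor skin against papilloma skin limma called 0 of 10, where 0.98% were called. There 4 members had an unadjusted p under 0.05, as did 7736 of all gene names. S100a11 was at 0.92 in that comparison (limma adjusted p = 0.135), S100a4 at -1.42 (0.146) and S100a10 at -1.52 (0.195). In the 7-column fit they were at 0.48, -0.83 and -0.98 (limma adjusted p = 0.325, 0.527 and 0.543). From the scanner files they were at 0.58, 0.30 and 0.31 (0.445, 0.876 and 0.827), so that S100a4 and S100a10 changed sign. For the difference of the lesion effects 0 of 10 were called, where 0.118% were called. An unadjusted p under 0.05 was seen for 2 members, S100a11 and S100a3, and for 4911 of all gene names. The scanner files also gave 0 calls among the members in these comparisons.

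**Figure D4:**
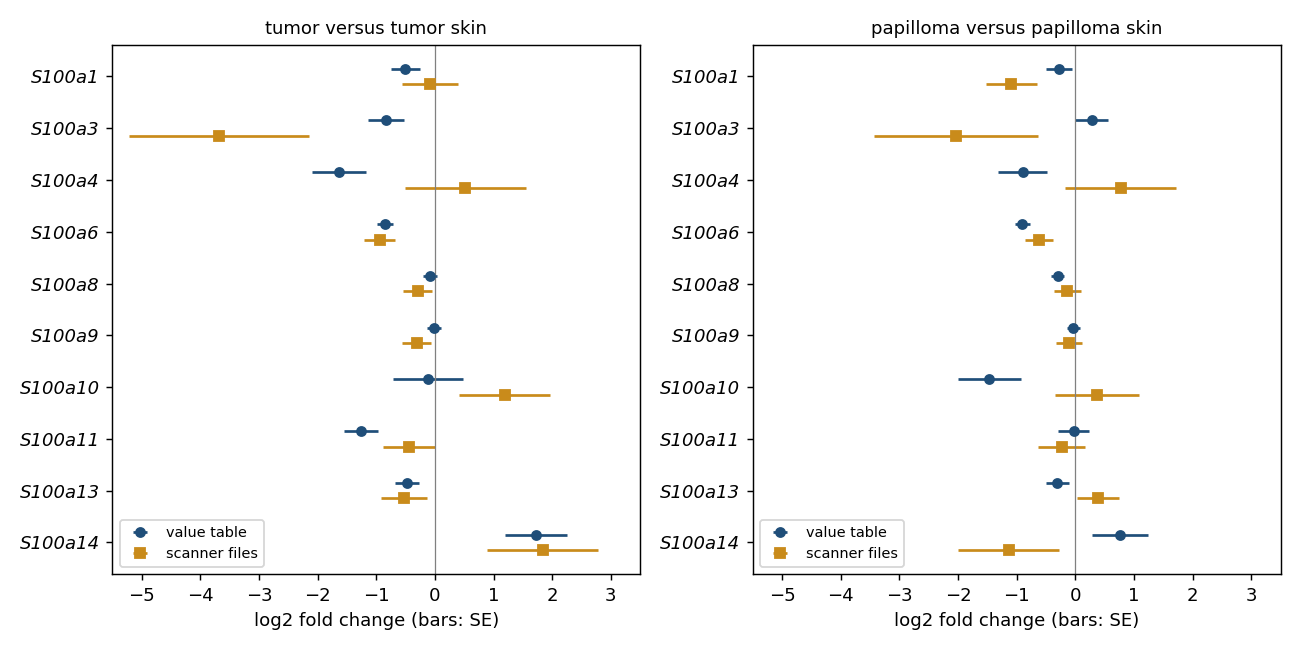
Log2 fold change over surrounding skin (x axis, bars are standard errors) of each S100 gene (rows) from the value table (blue circles) and from the scanner files (ochre squares), for tumor (left) and papilloma (right). S100a6 is below 0 in both sources and both panels. S100a4 and S100a10 change sign between the sources in both panels, and S100a3, S100a13 and S100a14 in the papilloma panel.

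Over the whole array the deposited forms also gave different numbers of calls. From the scanner files 0.825% of gene names were called in tumor, 16.5% in papilloma and 7.99% for lesions against skin, and the members called were 0, 0 and 1 (S100a6, -0.78, limma adjusted p = 0.0386). Without the columns of papilloma skin 1 and tumor 1 the shares were 5.18%, 3.13% and 13.1%, and the members called were 3, 0 and 3. The members called were S100a6, S100a11 and S100a14 in tumor, and again those 3 for lesions against skin. S100a6 was thus called for lesions against skin in all 3 of these fits.

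Other S100 genes on the array, 6 in number, were S100a5, S100a7a, S100a16, S100b, S100g and S100z. The values of this and the following gene lists are from the value table alone, without alternatives beside them. One of the 6 rose in each lesion, where 2147 of all 34797 gene names rose in tumor and 1671 in papilloma. S100b, known from glia, Langerhans cells and other cell types, was at 6.90, 7.07 and 7.55 in papilloma and 5.52 and 5.44 in papilloma skin (fold change 1.70, SE 0.24, limma adjusted p = 0.00523). In tumor S100b was at 5.35 and 4.97, against 5.97 and 5.46 in tumor skin, with a fold change of -0.55 (limma adjusted p = 0.217). S100a7a, a psoriasin-family gene of the epidermis, rose in tumor by 0.74 (SE 0.19, limma adjusted p = 0.0438), from 5.39 and 5.68 to 6.07 and 6.47. S100b was well above background on 6 arrays and S100a7a on 4.

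Of 8 protein partners of S100 proteins 3 fell in each lesion and none rose. Over all gene names 4.22% fell in tumor and 2.75% in papilloma. Anxa1, an anti-inflammatory annexin that S100a11 binds, was at 15.14 and 15.48 in papilloma skin, 16.13 and 15.70 in tumor skin, 13.85, 14.30 and 14.05 in papilloma, and 15.09 and 14.69 in tumor. It fell by 1.24 in papilloma (limma adjusted p = 0.0122) and by 1.02 in tumor (0.0313). Vim (vimentin, an intermediate filament protein) fell by 0.94 (0.009) and 1.29 (0.00428). Anxa2, the S100a10 partner, fell by 0.70 in papilloma (0.0242) and was at -0.23 in tumor (0.379). Anxa6, a membrane-binding annexin, fell by 1.86 in tumor (0.00665) and was at -0.85 in papilloma (0.0845). Actb, Myh9, Iqgap1 and Capn1 were not called at either stage. The list's median was -0.46 in tumor and -0.55 in papilloma.

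Of 7 receptors and co-receptors of extracellular S100 proteins 2 rose in both lesions. Of all 34797 gene names 2147 rose in tumor and 1671 in papilloma. Bsg (basigin), reported to bind S100a9, was at 9.77 and 9.69 in papilloma skin, 10.04 and 9.04 in tumor skin, 11.09, 11.84 and 11.78 in papilloma, and 11.88 and 11.95 in tumor. Its groups did not overlap, and it rose by 2.38 in tumor (SE 0.34, limma adjusted p = 0.00655) and 1.83 in papilloma (SE 0.31, 0.0123). Alcam, an adhesion molecule, rose by 1.24 (0.00596) and 0.88 (0.015). Tlr4, the receptor through which calprotectin is known to signal, was at 0.47 in tumor (0.222) and 0.28 in papilloma (0.496). Ager, which encodes RAGE, was at 0.08 and -0.10 (0.853 and 0.829). Ly96, Cd14 and Cd36 were not called.

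Of 7 transcription regulators linked to S100 genes or granulocytes 1 was called. Over all gene names 10.4% were called in tumor and 7.56% in papilloma. Cebpe, a factor of late granulocyte differentiation, was at 11.09 and 10.51 in papilloma skin and 8.83, 9.21 and 9.26 in papilloma, and fell by 1.70 (SE 0.25, limma adjusted p = 0.00689). In tumor it was at 9.47 and 9.67 against 10.68 and 10.02 in tumor skin, a fold change of -0.78 that was not called (0.119). Cebpa, Cebpb, Cebpd, Sfpi1, Stat3 and Hif1a were not called at either stage.

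Other cell types' markers also differed between groups. The mean of 6 eosinophil genes was from 8.49 to 9.47 in skin and from 7.54 to 7.95 in lesions, lower in every lesion array than in every skin array. The list was split in tumor, where 3 of the 6 fell and 1 rose, and in papilloma 3 fell and none rose. Over all gene names 4.22% fell in tumor and 2.75% in papilloma. Ccr3, an eosinophil chemokine receptor, fell by 2.03 in tumor and 2.29 in papilloma (limma adjusted p = 0.00107 and 0.00026). The gene that rose in tumor was Siglec5, a sialic acid-binding lectin (1.49, limma adjusted p = 0.011). The paper reports its product, Siglec F, on a part of the neutrophils in another model, tumors grafted from a carcinoma cell line. It also lists the Siglec5 transcript among those upregulated in its array comparison. Epx (eosinophil peroxidase) was at 0.14 in tumor (0.653) and was well above background on at most 3 arrays. Fibroblast genes had means from 10.15 to 11.68 in papilloma skin and papilloma and from 9.04 to 10.31 in tumor skin and tumor. The 8 monocyte and macrophage genes had means from 9.46 to 10.88 over all arrays and were mixed in direction. Emr1, a surface antigen of macrophages, fell by 2.10 in tumor and 3.01 in papilloma (limma adjusted p = 0.000748 and 9.79e-05). Its lesion arrays all lay below its skin arrays, where 5.11% of all gene names showed this. C1qa, a complement gene, rose in papilloma by 0.92 (0.0324). For lesions against skin Ccr2, a monocyte chemokine receptor, fell by 2.14 (0.0129), and C1qa and Cd68 rose by 0.75 and 0.46 (0.0126 and 0.0372). The part of these genes in the S100 values was not tested.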

How the data were processed

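Neutrophil RNA was hybridized to 9 one-color Agilent mouse arrays, each pooled from several mice. The deposited value table holds log2 values per probe; per the methods, the authors quantile normalized the raw data with limma and removed the chip effect with ComBat, and which of these steps the table holds is not stated. The deposited scanner files hold processed signal intensity per spot (Feature Extraction 10.7.3.1, mm9).

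The members and gene lists were chosen with earlier results of these data known. Probes of a gene were summarized by their median. limma 3.58.1 (R 4.3.3) was fitted to the 9 arrays in 4 groups, without covariates, and p-values were adjusted (Benjamini-Hochberg) over 34797 gene names; a call was an adjusted p of at most 0.05. Named genes were all members, at most 4 called genes per list and comparison, and the 3 most like S100a8 and S100a9; genes named as not called, S100b and S100a7a in the other comparison, and marker genes were added after their values were seen. The fit was tested on simulated data. Scanner intensities were averaged per probe, quantile normalized and corrected for slide by the ComBat method. The arrays lay on 3 slides. For slide as a term, each value table column took the slide of the scanner file of the same sample. Alternatives were scaling to the 75th percentile, normexp background (offset 50), slide or replicate terms, level filters, and leaving out arrays. Precision is limited by 2 or 3 arrays a group, and some fits that leave out arrays hold a single array in a group. Figures used matplotlib 3.10.9.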

Additional observations from a re-analysis of the deposited data

How the results depend on the processing

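The counts of members called and the direction of several members depended on the deposited form and the settings. In tumor against tumor skin the 2 calls became 0 with the scanner files (quantile normalization with or without slide correction, slide as a term, or 75th-percentile scaling), with the 6 scanner arrays of full spike-in slope, with slide as a term and with the replicate block, and 1 with normexp background or a required log2 fold change of 1 at a level of 6. In papilloma against papilloma skin the 1 call became 0 in all these scanner fits except normexp, and with the 7 columns, the replicate block and the fold rule. For lesions against skin the 2 calls became 0 from the scanner files without slide correction, with slide as a term, with 75th-percentile scaling and with the 6 arrays, 1 with slide-corrected scanner files, normexp, the replicate block and the fold rule, and 4 with a level of at least 6 or with probes well above background. Leaving out single arrays gave from 0 to 3 calls in tumor, 1 in papilloma and from 1 to 3 for lesions against skin. Same-numbered arrays were not treated as paired in the main fit. The correlations of their deviations from the group means ran from -0.93 to 0.43. They cannot settle a pairing, since in a group of 2 arrays the deviations mirror each other. Under the replicate block the calls over all gene names fell to 624 in tumor, 462 in papilloma and 2274 for both. A crossed pairing of the skin arrays, chosen after seeing the data, gave 3 calls over all genes in tumor skin against papilloma skin and 0 members.

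Some fold changes reversed, and the cause was not tested. In papilloma the scanner files gave, with quantile normalization and ComBat, normexp, slide as a term and no slide correction in this order, S100a14 at -1.14, -1.10, -1.06 and -1.29, S100a3 at -2.03, -2.14, -1.83 and -2.81, S100a10 at 0.37, 0.18, 0.40 and 0.43, S100a13 at 0.38, 0.33, 0.40 and 0.38, and S100a4 at 0.77, 0.83, 0.78 and 0.96. In tumor, in the same order, S100a4 was at 0.52, 0.66, 0.62 and 0.24 and S100a10 at 1.19, 0.98, 1.23 and 1.21, and S100a1 was at 0.065 with normexp. With 75th-percentile scaling, which moved the median of all genes in papilloma to -0.36, S100a3 was at -0.86, S100a6 at 0.48, S100a9 at 0.60, S100a10 at 0.63, S100a8 at 0.68, S100a11 at 0.84, S100a13 at 1.00 and S100a4 at 1.56 in papilloma, and S100a4 was at 0.063 and S100a10 at 0.91 in tumor. With the 6 arrays S100a1 was at 0.21 in papilloma and S100a3 at 0.78 in tumor. In the value table, slide as a term gave S100a9 at 0.015 and S100a10 at 0.18 in tumor, and the 7 columns gave S100a10 at 0.49. Leaving out single arrays moved S100a11 in papilloma from -0.47 to 0.41 (without papilloma skin 1 and 2), S100a10 in tumor from -0.73 (without tumor skin 1) to 0.50 (without tumor skin 2; 0.49 without tumor 1), and S100a9 in tumor from -0.057 (without tumor 1) to 0.019 (without tumor 2; 0.0034 without tumor skin 2). Of the members' fold changes under alternatives, 318 kept their direction and side of the threshold, 49 reversed, 28 lost the call and 5 gained it. Only S100a6 in tumor and papilloma and S100a11 in tumor had a call to lose, since the other members were not called in the main fit. The spike-in slope was compressed in 3 arrays, at 0.678 in papilloma skin 1, 0.876 in tumor skin 1 and 0.894 in tumor 1, against 1.04 to 1.06 in the others, which limits what the scanner files can show.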
